A study of Homo sapiens with 12 samples.

Results

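The effect of lenalidomide (LEN) on gene expression was examined in myeloma cells whose RUNX proteins were inhibited. The comparison sets the 3 samples treated with LEN and AI-10-104 together (LEN+AI-10-104) against the 3 samples treated with AI-10-104 alone, chosen by their labels, 6 of the 12 samples of the series. AI-10-104 is the small-molecule RUNX inhibitor that the labels write as RUNXi. The cells are OPM-1, an established line from a human plasma cell myeloma. They were kept for 48 h in DMSO, 0.1 μM LEN, 1 μM AI-10-104 or both drugs, with 3 samples per condition, and polyadenylated RNA was sequenced. All groups are the same cell line, so no result extends to other myeloma cells without further samples. The study's methods describe the replicates as biological, and p-values measure the spread between these samples. The 6 samples with DMSO or LEN and no AI-10-104 gave the effect of LEN without the inhibitor, and they share no sample with the comparison described here.

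LEN is an immunomodulatory imide drug that binds cereblon (CRBN), the substrate receptor of a ubiquitin ligase, and turns the ligase on the transcription factors IKZF1 and IKZF3. In myeloma cells, loss of these factors is known to release genes of the interferon response and to lower IRF4 and MYC. RUNX1 and RUNX3 bind DNA together with CBFβ, and AI-10-104 keeps RUNX proteins apart from CBFβ. The comparison asks what LEN still changes, and by how much, once the RUNX proteins are inhibited. It measures RNA and says nothing of the IKZF proteins themselves.

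Between 16352548 and 31386210 reads were counted on genes per sample, with 22784874 to 29512562 in the AI-10-104 samples and 16352548 to 20419807 in the LEN+AI-10-104 samples. The deposited values are RPKM, reads per kilobase of gene length scaled to the reads counted on genes. Of 38478 genes, 11241 averaged 0.5 RPKM or more across all 12 samples and were tested. All 10 plasma cell markers were present and 4 of 6 mature B cell markers, PAX5 and MS4A1 among them, rested on at most 3 reads in each of the 6 samples. The other B cell markers, BACH2 and CR2, had means of 1.99 and 0.289 RPKM. Markers of epithelial and stromal cells were all at or under that floor, as were 8 of 9 T and NK cell markers in the table, while HBB, a globin gene, had a mean of 19.5 RPKM with the other 4 erythroid markers at or under the floor. AI-10-104 replicate 2 stood apart from the other AI-10-104 samples. Its reads differed from those of replicates 1 and 3 with a chi-square of 7.40 and 9.64 per degree of freedom, against 2.82 between replicates 1 and 3, and on the first principal component it lay at 4.9 against 19.8 and 19.5. The main counts below are therefore also given without it, as are list counts and named calls that differ without it.

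Of the 11241 genes tested, 355 (3.16%) rose and 53 (0.471%) fell when LEN was added to AI-10-104. A gene was said to rise or fall when its adjusted p was at most 0.05 and its log2 fold change, on the scale log2(RPKM + 0.1), was at least 0.32 in size. An adjusted p of at most 0.05 alone was reached by 1026 genes that were higher (9.13%) and 657 that were lower (5.84%), and 83 genes rose and 15 fell by a fold change of at least 1.5. The median log2 fold change over all genes tested was 0.018. Genes that rose were 87.0% of those called, and 73.4% after quantile normalization, which gave 248 rises and 90 falls. LEN without the inhibitor raised 66 genes (0.587%) and lowered 7 (0.0623%) against DMSO. The plot of both LEN effects shows the 44 genes that rose in both comparisons along the diagonal and a larger cloud above it of genes called on the AI-10-104 background and not with LEN alone.

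**Figure D1:**
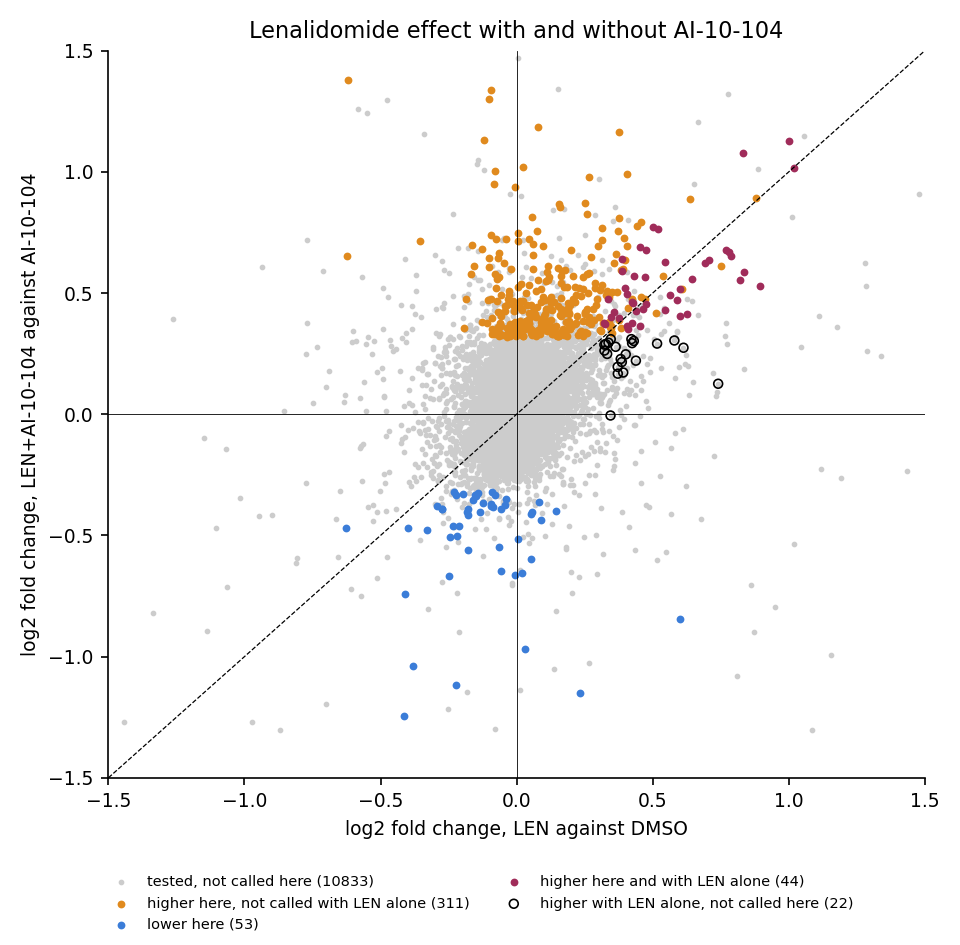
Each point is a gene tested, with its log2 fold change for LEN against DMSO on the horizontal axis and for LEN+AI-10-104 against AI-10-104 on the vertical axis; the dashed line marks equal effects. The 44 genes that rose in both comparisons lie near the dashed line, the 311 that rose with AI-10-104 and were not called with LEN alone lie mostly above it, and 68 genes outside ±1.5 are not drawn.

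Most genes that LEN raised without the inhibitor rose again in its presence. Of the 66, 44 (66.7%) were called higher here and 65 had a log2 fold change above 0. Over all genes tested these shares were 3.16% and 54.4%. An adjusted p of at most 0.05 was reached by 59 of the 66, 15 of them under the fold threshold. The median log2 fold change of the 66 was 0.43 with LEN alone and 0.43 on the AI-10-104 background. The 22 genes not called had log2 fold changes from -0.01 to 0.31. The effect was smaller on the AI-10-104 background for 45 of the 66 genes and larger for 21, which is a count and not a test, since genes chosen for a high value with LEN alone tend to be lower when measured again. The test of the difference between both LEN effects, the interaction in limma, passed an adjusted p of 0.05 for 0 of the 11241 genes, with a smallest adjusted p of 0.155. Its unadjusted p was under 0.05 for 1621 genes, 12 of them among the 66, with 4 larger and 8 smaller on the AI-10-104 background. The same contrast with voom, which fits the reads behind the values, called 3 genes and had an unadjusted p under 0.05 for 1684. Without AI-10-104 replicate 2 the interaction was called for 540 genes, 415 of them with a larger LEN effect on the AI-10-104 background, and only 1 of the 540 was among the 66.

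Of 7 MHC class II antigen presentation genes tested, CIITA, CD74 and HLA-DRB1 rose. CIITA is the master activator of MHC class II transcription, CD74 is the invariant chain that guards the class II groove, and HLA-DRB1 is a beta chain of the class II molecule. HLA-DRB1 (chr6:32577902-32589848, GRCh38) was at 0.750, 1.05 and 1.05 RPKM in AI-10-104 replicates 1, 2 and 3 and at 2.31, 1.99 and 2.22 RPKM in the LEN+AI-10-104 replicates. The groups did not overlap, and the level rose 2.18-fold (log2 fold change 1.13 ± 0.14 SE, adjusted p = 0.00108). Its reads can be shared with near-identical DRB genes and depend on the allele the cells carry, so its level is uncertain. CD74 (chr5:150401637-150412969) went from 60.0, 56.1 and 59.2 RPKM to 102, 92.2 and 86.6 RPKM. That is a 1.60-fold rise with no overlap (log2 fold change 0.68 ± 0.06, adjusted p = 0.000197). CIITA (chr16:10866222-10943021) was at 3.08, 3.30 and 3.19 RPKM against 4.85, 4.38 and 4.40 RPKM, with log2 fold change 0.50 ± 0.06 and adjusted p = 0.000609.

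For these 3 genes LEN acted on a level that AI-10-104 had already moved. Mean levels in DMSO, LEN, AI-10-104 and the combination were 0.516, 1.13, 0.947 and 2.17 RPKM for HLA-DRB1. For CD74 they were 32.9, 56.0, 58.4 and 93.7 RPKM, and for CIITA 2.20, 2.95, 3.19 and 4.54 RPKM. For all 3, DMSO was lowest, the combination highest, and each drug alone lay between them. The interaction had adjusted p of 0.789, 0.606 and 0.596, and the 95% intervals of the difference in log2 fold change, AI-10-104 background minus LEN alone, were -0.30 to 0.56 for HLA-DRB1 and -0.27 to 0.08 for CD74. In bulk RNA, more cells of a kind and more RNA per cell cannot be told apart. Of 20 genes on the MHC class II list, 7 reached the mean of 0.5 RPKM, 3 rose (42.9%, against 3.16% of all genes) and 0 fell, with a median log2 fold change of 0.07. The other 4 tested, IFI30, RFX5, RFXAP and RFXANK, had log2 fold changes from -0.13 to 0.07.

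Class I heavy chains, which present peptides to cytotoxic T cells, rose by less. HLA-B was at 14.2, 14.5 and 14.1 RPKM with AI-10-104 and at 20.2, 19.2 and 19.7 RPKM with the combination (log2 fold change 0.46 ± 0.04, adjusted p = 0.000197). HLA-C had a log2 fold change of 0.44 ± 0.07, with adjusted p = 0.00307. When GC content and gene length were corrected for within every sample, the change of HLA-C was 0.27, under the fold threshold. The gene lengths in the table, 10095 bases for HLA-B and 11093 for HLA-C, set their RPKM levels, and reads between them can be split by sequence likeness. Of 14 class I genes tested, 3 rose (21.4%) and 0 fell, and the median log2 fold change was 0.11. B2M, the light chain shared by class I molecules, had a log2 fold change of -0.08 (adjusted p = 0.364).

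**Figure D2:**
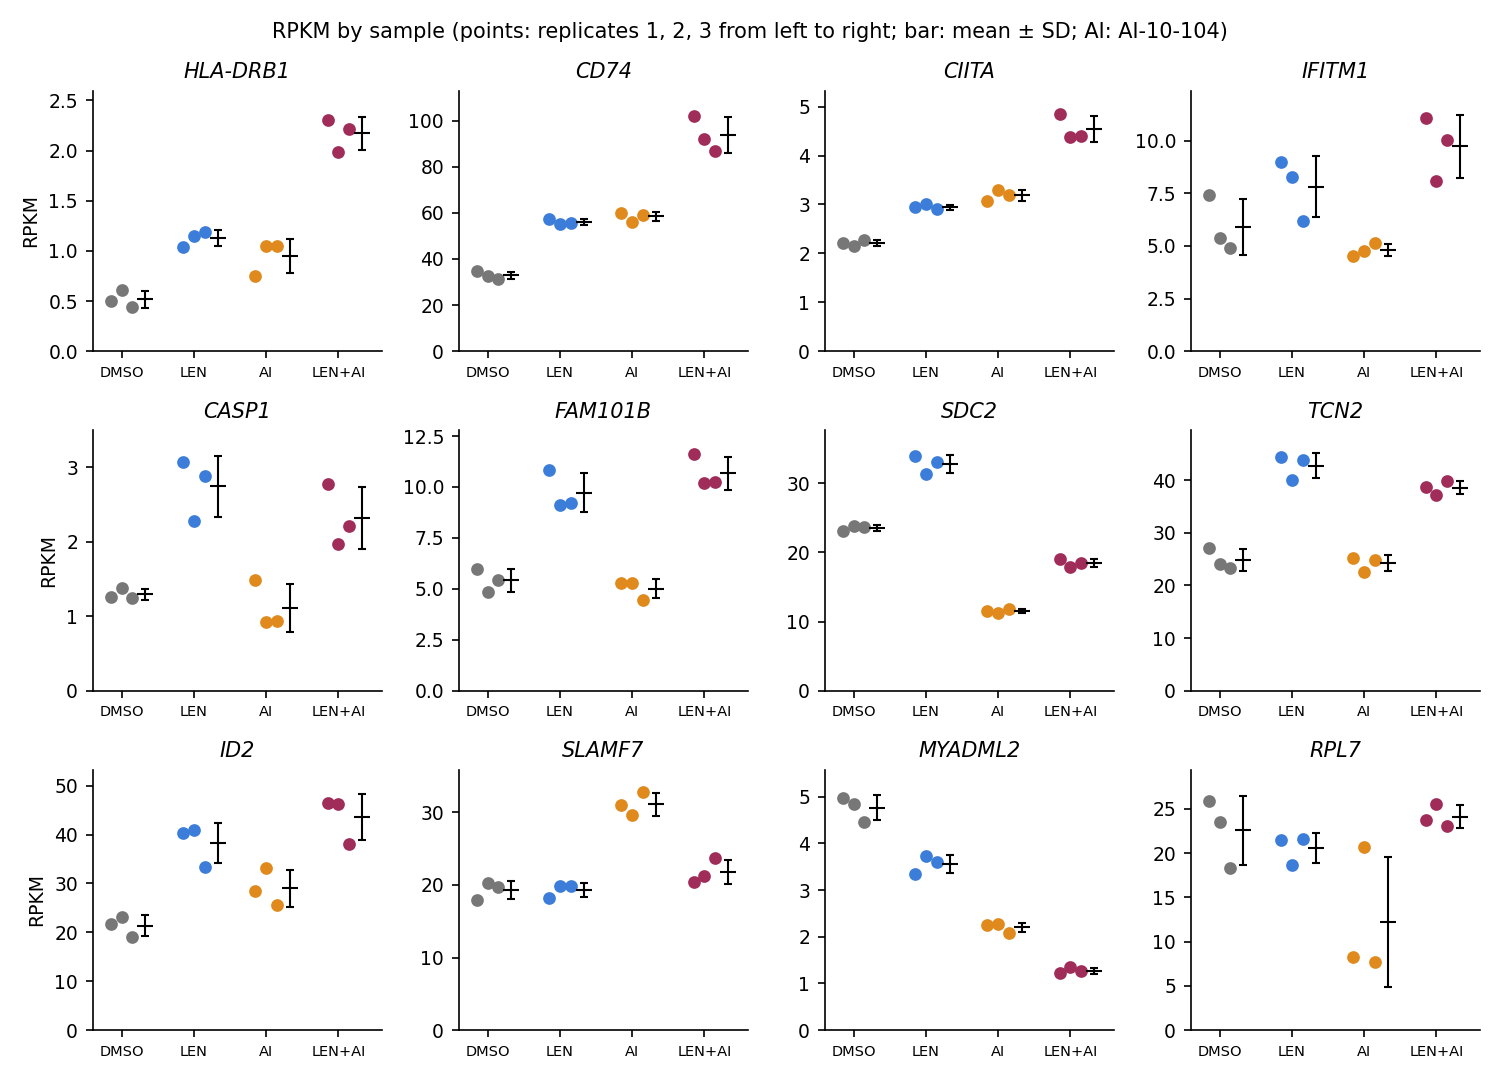
RPKM of 12 genes in each of the 12 samples, with replicates 1 to 3 from left to right within a condition and the mean ± SD beside them (n = 3). HLA-DRB1, CD74, CIITA, FAM101B, SDC2 and TCN2 lie higher with LEN both without and with AI-10-104, SLAMF7 and MYADML2 are lower with LEN on the AI-10-104 background, and RPL7 is low in AI-10-104 replicates 1 and 3 only.

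Antiviral interferon-stimulated genes moved unevenly. Of 27 tested, 6 rose (22.2%, against 3.16% of all genes), 1 fell and 20 were not called, with a median log2 fold change of 0.14. Without AI-10-104 replicate 2, 7 rose and 1 fell. IFITM1, a membrane protein that blocks viral fusion, was at 4.53, 4.77 and 5.12 RPKM with AI-10-104 and at 11.1, 8.10 and 10.0 RPKM with the combination. All 3 combination samples lay above, a 1.99-fold rise (log2 fold change 0.99 ± 0.17, adjusted p = 0.00541). NMI, a partner of STAT proteins, went from 1.10, 1.41 and 1.08 to 1.92, 2.05 and 1.98 RPKM (log2 fold change 0.69 ± 0.13, adjusted p = 0.00738). IFI6, PARP10, EPSTI1 and BST2 also rose, with log2 fold changes of 0.61, 0.58, 0.54 and 0.40. IFI6 had 13 to 23 reads a sample. It was not called after the GC and length correction (0.46, adjusted p = 0.136) or quantile normalization (0.53, adjusted p = 0.0689). With that correction 4 genes of the list rose, with quantile normalization 5, and 1 fell in each. SAMD9, another interferon-stimulated gene, went the other way, from 13.9, 12.3 and 14.1 RPKM to 9.75, 9.93 and 9.49 RPKM (log2 fold change -0.46 ± 0.06, adjusted p = 0.00234). ISG15 was at 1.18, 1.68 and 1.42 RPKM against 2.16, 1.74 and 2.79 RPKM and fell just short of the threshold (adjusted p = 0.05003), while MX1 (log2 fold change -0.02) was not called.

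The stretch upstream of several of these genes holds the letters of an interferon-stimulated response element, the site read by the ISGF3 complex. The motif searched was GAAA, any 2 bases and GAAA again, on both strands, in the 250 bases before the gene start in RefSeq's promoter table (GRCh38.p14). It was present for 5 of the 5 antiviral genes that rose and had an entry, for SAMD9, and for 6 of the 20 not called, against 172 of 8473 tested genes with an entry (2.03%). The list was made of interferon-stimulated genes, a class in which such sites are common, and no test was made. The sequences below, on the gene's strand, show the match in capitals with up to 40 bases on either side, for 3 genes that rose and for SAMD9, which holds the same letters and fell.

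IFITM1, chr11:313960-314039, match beginning 40 bases before the start: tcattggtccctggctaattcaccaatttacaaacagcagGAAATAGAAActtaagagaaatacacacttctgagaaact

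EPSTI1, chr13:42992242-42992331, minus strand, match 50 bases before the start: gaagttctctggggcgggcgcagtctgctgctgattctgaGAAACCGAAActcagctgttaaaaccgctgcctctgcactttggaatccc

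NMI, chr2:151289782-151289871, minus strand, match on the other strand 163 bases before the start: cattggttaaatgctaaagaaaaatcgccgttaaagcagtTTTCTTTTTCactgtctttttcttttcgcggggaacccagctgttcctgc

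SAMD9, chr7:93118066-93118155, minus strand, match 136 bases before the start: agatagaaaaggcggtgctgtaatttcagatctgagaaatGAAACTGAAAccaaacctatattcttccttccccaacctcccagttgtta

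HLA-DRB1 carries in the same window the Y box CTGATTGG, the inverted CCAAT box of class II promoters, here in capitals and 49 bases before the start (chr6:32589850-32589937, minus strand): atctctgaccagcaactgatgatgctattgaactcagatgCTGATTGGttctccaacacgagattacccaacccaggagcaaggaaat

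Among the 44 genes that rose in both comparisons, 29 had an entry, 1 of which (MVP) held the response element letters and 2 (HLA-DRB1 and MAF) the Y box, which 479 of the 8473 tested genes hold (5.65%). The RUNX motif TGTGGT was found in 0 of the 29 and in 619 of the 8473 (7.31%). These are counts of letters in this window.

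Of the sensors and signalling genes of the interferon pathway, 2 of 12 and 4 of 24 rose (16.7% each, against 3.16% of all genes). Their median log2 fold changes were 0.14 and 0.16. TMEM173, known as STING, which signals from cytosolic DNA, was at 5.42, 5.62 and 4.57 RPKM with AI-10-104 and at 9.67, 8.80 and 8.39 RPKM with the combination. The change was 1.71-fold (log2 fold change 0.77 ± 0.08, adjusted p = 0.000537), beside a log2 fold change of 0.50 with LEN alone. SLC15A4, a lysosomal transporter needed for signalling by endosomal Toll-like receptors, had a log2 fold change of 0.40 here and 0.38 with LEN alone. Of the 12 sensors, 10 had a log2 fold change above 0, against 54.4% of all genes tested. The IRF, JAK and STAT genes that rose were JAK3, the kinase paired with the common gamma chain, SOCS3, a feedback inhibitor, and the transcription factors IRF1 and IRF9, with log2 fold changes of 0.63, 0.51, 0.39 and 0.35. After the GC and length correction SOCS3 (0.39, adjusted p = 0.0717) and IRF9 (0.27, under the fold threshold) were not called. With quantile normalization IRF9 was again under the fold threshold (0.31). IRF1 was tightly measured, at 10.1, 10.6 and 10.3 RPKM against 13.8, 13.7 and 13.2 RPKM (adjusted p = 0.000197).

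CASP1, the protease that matures interleukin-1 beta in inflammasomes, was at 1.49, 0.920 and 0.929 RPKM with AI-10-104 and at 2.78, 1.96 and 2.21 RPKM with the combination (log2 fold change 1.01 ± 0.18, adjusted p = 0.00629). Its LEN effect without the inhibitor was 1.02, so the estimates differed by -0.01 (interaction adjusted p = 0.993, 95% interval of the difference -0.55 to 0.54), with 61 to 153 reads a sample. CARD16, which binds caspase-1, had a log2 fold change of 0.39 here (adjusted p = 0.0446), which was 0.26 without AI-10-104 replicate 2 (adjusted p = 0.0849) and 0.33 with quantile normalization (adjusted p = 0.0729), so the call was lost in both. APOL3 and APOL6, interferon-inducible apolipoprotein L genes, rose by 0.53 and 0.42 on the log2 scale, against 0.90 and 0.36 with LEN alone. GBP3 was the only guanylate-binding protein gene of 7 that reached the mean of 0.5 RPKM and had a log2 fold change of 0.33 (adjusted p = 0.0133). Its change was 0.28 without AI-10-104 replicate 2 and 0.28 with quantile normalization, both under the fold threshold. Against replicate 2 alone the change was 0.44. Over the 8 lists of antigen presentation, interferon and inflammasome genes, 23 of 93 genes tested rose (24.7%) and 1 fell, with a median log2 fold change of 0.14 here and 0.15 with LEN alone. Without AI-10-104 replicate 2 the counts were 23 and 1, and with replicate 2 as the only AI-10-104 sample 10 and 0. These lists were written with earlier results of these data known and are no independent evidence of direction.

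Other genes that rose in both comparisons include FAM101B, TCN2 and ID2. FAM101B (refilin B, an actin-bundling regulator, chr17:439978-445939) was at 5.27, 5.29 and 4.47 RPKM with AI-10-104 and at 11.6, 10.2 and 10.2 RPKM with the combination. It rose 2.11-fold (log2 fold change 1.08 ± 0.10, adjusted p = 0.000197), against 0.83 with LEN alone. TCN2, transcobalamin, which carries vitamin B12 into cells, went from 25.2, 22.6 and 24.9 RPKM to 38.7, 37.3 and 39.9 RPKM. ID2, an inhibitor of helix-loop-helix transcription factors, went from 28.5, 33.1 and 25.6 RPKM to 46.5, 46.2 and 38.2 RPKM. Both rose with no overlap, by 0.67 and 0.59 on the log2 scale, and by 0.78 and 0.84 with LEN alone. IL4I1, called on the AI-10-104 background and not with LEN alone, is an amino acid oxidase that dampens T cells. It was at 0.387, 0.380 and 0.380 RPKM against 1.13, 0.783 and 1.06 RPKM (log2 fold change 1.16 ± 0.21, adjusted p = 0.00638). LEN alone gave 0.38 with adjusted p = 0.580, and the interaction was not called (adjusted p = 0.303). Means in DMSO and LEN were 0.425 and 0.598 RPKM, so the combination samples carried IL4I1 past the mean of 0.5 RPKM needed for testing.

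LEN acted in the same direction on genes that AI-10-104 had moved in opposite directions. SDC2, the heparan sulphate proteoglycan syndecan-2, was at 11.5, 11.2 and 11.7 RPKM with AI-10-104 and at 19.1, 17.9 and 18.4 RPKM with the combination. It had the smallest adjusted p of the comparison among the genes named here, 1.14e-05, with log2 fold change 0.68 ± 0.04. Its means in DMSO and LEN were 23.6 and 32.8 RPKM, so AI-10-104 lowered it and the combination stayed below DMSO (log2 fold change -0.35, adjusted p = 0.00027). ANXA6, annexin A6, showed the opposite background, with means of 4.95, 8.82, 8.19 and 12.1 RPKM in DMSO, LEN, AI-10-104 and the combination. MAF, a transcription factor that drives a subset of myelomas, had means of 5.89, 8.0, 4.44 and 5.98 RPKM in the same order, and the combination did not differ detectably from DMSO (adjusted p = 0.880). Of the 44 shared genes, 5 were higher and 5 lower with AI-10-104 than with DMSO, and 30 were higher and 1 lower in the combination than in DMSO. These comparisons use the same AI-10-104 or combination samples and are given side by side only, without the shares over all genes.

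ITGB7, the integrin chain that lets myeloma cells adhere in the marrow, was at 482, 535 and 498 RPKM with AI-10-104 and 690, 689 and 689 RPKM with the combination (log2 fold change 0.45 ± 0.04, adjusted p = 0.000197). Its change with LEN alone was 0.29 with adjusted p = 0.00513, under the fold threshold. Means in DMSO and LEN were 762 and 933 RPKM. AI-10-104 had lowered ITGB7 against DMSO (log2 fold change -0.59), and the combination did not rise above DMSO (-0.14, adjusted p = 0.0553). RASSF4, a RAS-association domain protein, rose by 0.38 on the log2 scale here and 0.42 with LEN alone. CD63, a tetraspanin, rose by 0.36. Of 35 adhesion and cytoskeleton genes, 5 rose (14.3%, against 3.16% of all genes) and 1 fell (0.471% of all genes fell). TMSB4X, thymosin beta-4, which binds actin monomers, went from 377, 451 and 375 RPKM to 549, 520 and 550 RPKM (log2 fold change 0.43 ± 0.06, adjusted p = 0.00234).

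The sets as a whole behaved differently in single samples. The 44 shared genes had median levels in the AI-10-104 samples of -0.02, 0.00 and -0.02 relative to DMSO, in log2 units, and of 0.63, 0.50 and 0.44 in the combination, beside 0.52, 0.47 and 0.50 with LEN alone. These medians are over genes that AI-10-104 moved both ways, 5 called higher and 5 lower than in DMSO. The 311 genes that rose here and were not called with LEN alone had medians of -0.26, -0.06 and -0.24 in AI-10-104 replicates 1, 2 and 3 and of 0.28, 0.25 and 0.22 in the combination. With LEN alone they lay at 0.08, 0.16 and 0.09, and 231 of the 311 had a LEN effect above 0 there. The median LEN effect of the 311 was 0.11 there against 0.43 here, beside -0.002 and 0.018 over all genes tested. In this set replicates 1 and 3 were below DMSO and replicate 2 near it. The set was chosen by this comparison, so these medians describe it and test nothing.

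**Figure D3:**
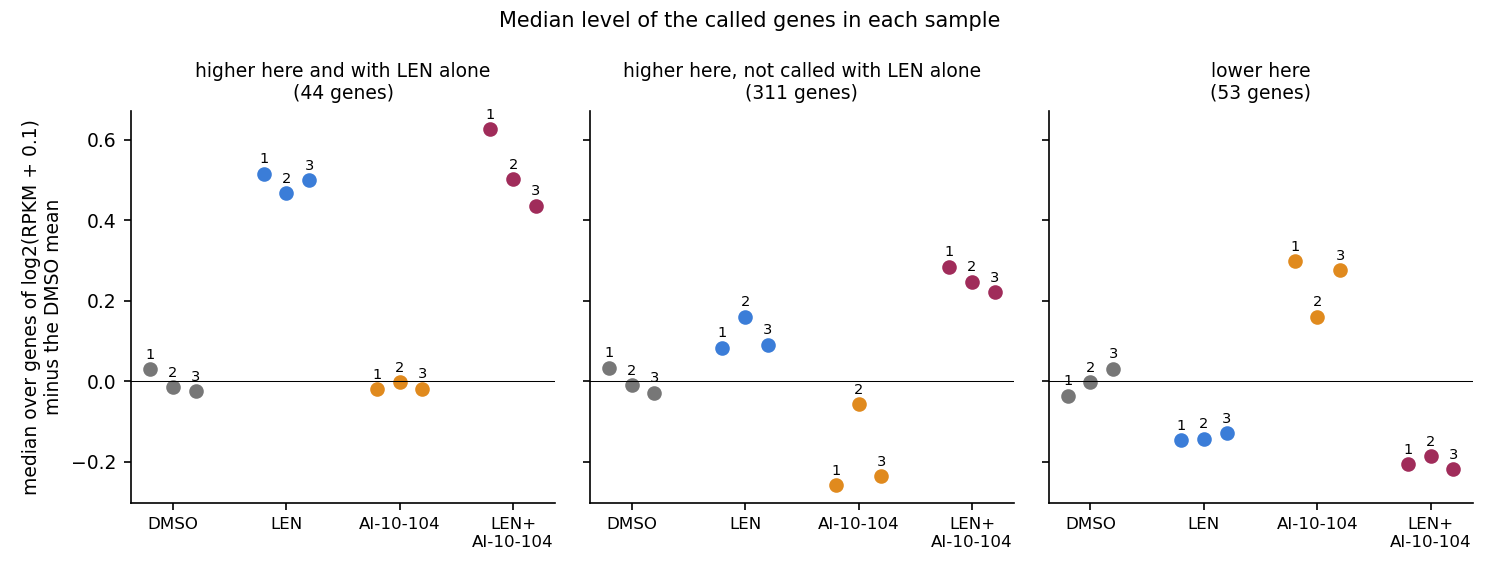
Median over the genes of each set of log2(RPKM + 0.1) minus the DMSO mean, for each of the 12 samples; numbers above the points are replicates. The median of the 44 shared genes is within 0.02 of DMSO in all 3 AI-10-104 samples, over genes that differ in both directions (5 called higher, 5 lower), while the 311 genes called here only are low in AI-10-104 replicates 1 and 3 (-0.26 and -0.24) and near DMSO in replicate 2 (-0.06).

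AI-10-104 replicate 2 lay nearer to the combination than its fellow samples did for most of the 311 genes. It was above both other AI-10-104 samples for 212 of the 311 and below both for 45, against 22 and 14 of the 44 shared genes. Over all 11241 genes tested, replicate 2 was above both for 4216 and below both for 4603. Without it, 661 genes (5.88%) rose and 103 (0.916%) fell, with 326 of the 355 and 48 of the 53 among them. Without replicate 1, 162 rose and 21 fell, and without replicate 3, 186 rose and 27 fell. Leaving out LEN+AI-10-104 replicate 1 gave 189 and 32. With replicate 2 as the only AI-10-104 sample, assumed to vary like the other groups, 43 genes rose and 4 fell. Of the 355, 40 remained, 22 of the 44 shared genes and 18 of the 311. No gene called with all samples changed sign in any of these fits. These genes were chosen from the same samples, so a change of sign was unlikely from the outset and this tests nothing. Of the 44 shared genes, 39, 41 and 39 were still called when AI-10-104 replicate 1, 2 or 3 was left out, beside 115, 285 and 133 of the 311. The plot of calls with each sample left out shows the same counts. A group of 1 sample has a wider error, which by itself lowers the number of calls. No fit was made with replicate 1 or 3 as the only AI-10-104 sample, so the counts with replicate 2 alone do not compare the replicates.

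**Figure D4:**
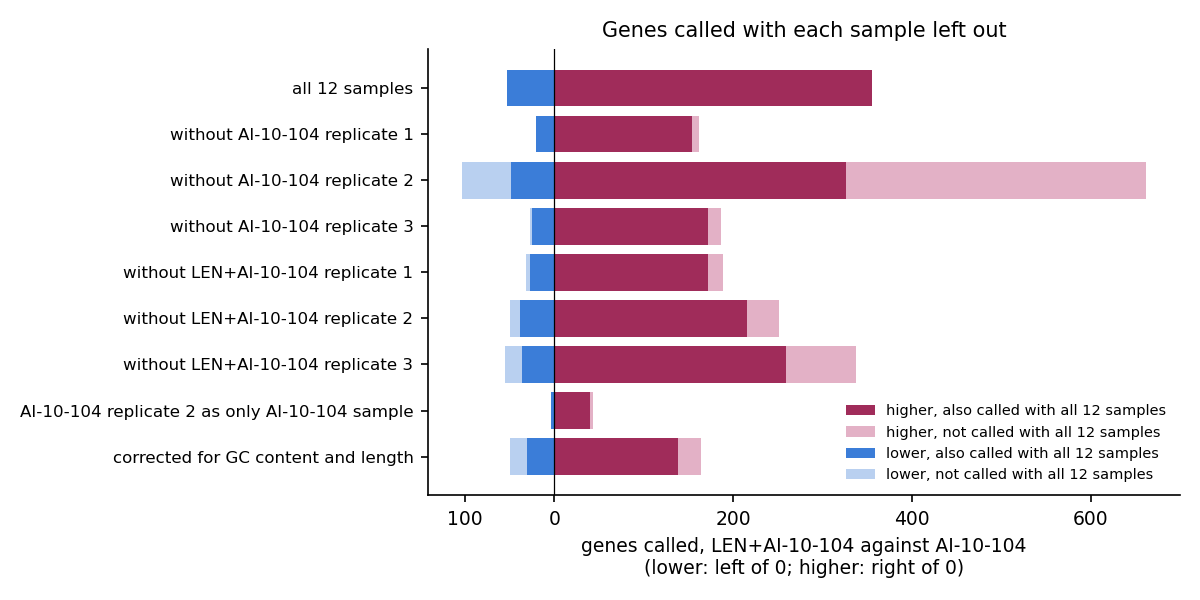
Genes called higher (right of 0) and lower (left of 0) with all 12 samples, with each sample of the comparison left out, with AI-10-104 replicate 2 as the only AI-10-104 sample, and after correction for GC content and length; dark bars are genes also called with all samples. The count of higher genes runs from 43 with replicate 2 alone to 661 without it, around 355 with all samples.

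GC content differed from that of all genes tested in every called set, most of all in the 311 genes called here only. The median GC content of the gene's exons was 58.5% for the 311 genes, 51.4% for the 44 shared genes, 43.6% for the 53 that fell and 46.9% for all genes tested, and the median gene length was 2277, 3659, 2518 and 3715 bases. Of the 2110 genes richest in GC, 166 rose and 4 fell, and of the 2110 poorest in GC, 12 rose and 12 fell. The GC-rich genes had median levels of -0.11, -0.00 and -0.10 relative to DMSO in AI-10-104 replicates 1, 2 and 3, beside 0.09, 0.09 and 0.04 in the combination and -0.05 to 0.06 among the DMSO samples. With the correction for GC content and length, 164 genes rose and 49 fell, and 37 of the 44 and 101 of the 311 remained. The same genes without correction gave 341 and 53. Of the 76 named called genes with a GC value, 52 kept their call after the correction and 24 lost it. The part of GC content and length in the 311 calls beyond these counts was not tested.

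Some ribosomal protein and respiratory chain genes were low in AI-10-104 replicates 1 and 3. RPL7, a protein of the large ribosomal subunit, was at 8.23, 20.7 and 7.66 RPKM in AI-10-104 replicates 1, 2 and 3 and at 23.7, 25.6 and 23.0 RPKM in the combination. DMSO and LEN means were 22.6 and 20.6 RPKM, so that replicates 1 and 3 alone stood low. The log2 fold change was 1.13 ± 0.29 (adjusted p = 0.0252), 1.59 without replicate 2 and 0.22 against replicate 2 alone (adjusted p = 0.639). RPS10 had the same pattern, at 2.59, 5.54 and 2.85 RPKM against 5.33, 7.64 and 7.40 RPKM, although its groups overlapped. RPS28 was at 139, 269 and 123 RPKM against 262, 283 and 281 RPKM, again with an overlap. Of 76 ribosomal protein genes tested, 7 rose (9.21%, against 3.16% of all genes) and 0 fell. Without replicate 2, when 661 of all genes rose (5.88%) and 103 fell (0.916%), 14 rose and 1 fell, and 0 changed against replicate 2 alone. These genes have near-identical processed copies elsewhere, to which reads may be split, so their levels are uncertain.

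Among 61 nuclear genes of the respiratory chain, NDUFS6 and COX6A1 rose, by 0.36 and 0.33 on the log2 scale, a share of 3.28% near the 3.16% of all genes. NDUFS6 was at 259, 362 and 270 RPKM against 367, 371 and 395 RPKM. There were 8 such genes without replicate 2 and 0 against it alone. ATP8, the mitochondrially encoded gene for an ATP synthase subunit, was at 985, 1317 and 876 RPKM against 1615, 1268 and 1772 RPKM, with overlap (log2 fold change 0.56, adjusted p = 0.0246, and 0.22 against replicate 2 alone). Mitochondrial transcripts took 3.72 to 4.35% of the reads with AI-10-104 and 3.86 to 5.08% with the combination, with combination replicate 3 the highest. TXNDC5, a disulphide isomerase of the endoplasmic reticulum, was at 0.942, 2.12 and 1.05 RPKM against 2.71, 2.87 and 2.48 RPKM, with log2 fold change 1.00 ± 0.26, and 0.32 against replicate 2 alone (adjusted p = 0.685). CDKN2A, the cell cycle inhibitor locus, was at 36.8, 51.5 and 38.5 RPKM against 54.0, 52.9 and 53.6 RPKM, so that replicate 2 differed from the combination by a log2 fold change of 0.05.

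Of the genes that fell, SLAMF7 was 1 of 23 surface antigens tested and XBP1 1 of 16 plasma cell factors. SLAMF7, the myeloma antigen bound by elotuzumab (chr1:160739057-160754821), was at 31.0, 29.6 and 32.8 RPKM with AI-10-104 and at 20.4, 21.2 and 23.7 RPKM with the combination. It fell to 0.70 of its level (log2 fold change -0.52 ± 0.06, adjusted p = 0.0011) and the groups did not overlap. LEN without the inhibitor left it at 19.3 RPKM in DMSO and 19.3 RPKM in LEN (log2 fold change 0.01). The interaction estimate was -0.52 with adjusted p = 0.155, which misses the threshold, and -0.56 with adjusted p = 0.0149 without AI-10-104 replicate 2, which passes it. AI-10-104 had raised SLAMF7 against DMSO (log2 fold change 0.69, adjusted p = 0.000113), and the combination was close to DMSO (0.17, adjusted p = 0.126). Against AI-10-104 replicate 2 alone the change was -0.45 (adjusted p = 0.089).

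XBP1, the transcription factor of antibody secretion and the unfolded protein response, was at 649, 594 and 654 RPKM against 487, 508 and 490 RPKM (log2 fold change -0.35 ± 0.04, adjusted p = 0.000609). Its means in DMSO and LEN were 509 and 456 RPKM, and AI-10-104 against DMSO gave 0.31, under the fold threshold. With quantile normalization it was again called lower, and with the GC and length correction its change was -0.31, under the fold threshold. XBP1 was the only plasma cell factor called with all samples, and 1 more rose without AI-10-104 replicate 2. The median log2 fold change of the 16 plasma cell factors tested was -0.05. Summed over the 10 plasma cell markers the level was 5044 to 5293 RPKM with AI-10-104 and 4409 to 4633 RPKM with the combination. JCHAIN alone made up most of this sum, and XBP1 came next with a mean of 564 RPKM over the 6 samples. The sum therefore mostly follows JCHAIN and does not describe the markers in general. The part of this sum's change in other results was not tested.

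ID1 and MYADML2 fell with all samples, without AI-10-104 replicate 2, and against replicate 2 alone. ID1, a helix-loop-helix inhibitor induced by BMP signals, was at 13.5, 15.4 and 17.7 RPKM against 10.7, 11.2 and 11.6 RPKM (log2 fold change -0.47 ± 0.08, adjusted p = 0.00591), where its relative ID2 rose. Its means were 29.9 RPKM in DMSO and 19.3 RPKM in LEN, so each drug alone and the combination lay below DMSO. MYADML2, a myeloid-associated differentiation marker-like gene whose function is little known, was at 2.26, 2.27 and 2.08 RPKM against 1.22, 1.35 and 1.26 RPKM (log2 fold change -0.74 ± 0.07, adjusted p = 0.000197). Its means in DMSO and LEN were 4.76 and 3.56 RPKM. Of the 12 ID and BMP feedback genes, ID2 and BAMBI, a decoy receptor, rose and ID1 fell. ID1 and MYADML2 are the 2 of 7 genes lowered by LEN alone that also fell here.

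EOMES, a T-box transcription factor, was at 1.24, 1.22 and 1.16 RPKM with AI-10-104 and at 0.619, 0.702 and 0.856 RPKM with the combination (log2 fold change -0.67 ± 0.17, adjusted p = 0.0276). TNFSF8, the ligand of CD30, was at 0.808, 0.703 and 0.951 RPKM against 0.392, 0.505 and 0.570 RPKM (log2 fold change -0.65 ± 0.15, adjusted p = 0.0187). Against replicate 2 alone the changes of EOMES and TNFSF8 were -0.69 and -0.46. HIST1H2BD, a histone H2B gene, was at 3.62, 1.66 and 4.02 RPKM against 1.57, 1.23 and 1.53 RPKM, so that its change of -0.97 became -0.20 against replicate 2 alone. Over the 53 genes, 40 had a log2 fold change below 0 with LEN alone. The median of the 53 was -0.14 there against -0.41 here, beside -0.002 and 0.018 over all genes tested.

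The targets of both drugs changed little at the RNA level. CRBN was at 6.58, 6.52 and 6.17 RPKM with AI-10-104 and 5.54, 6.19 and 6.79 RPKM with the combination (log2 fold change -0.06, 95% interval -0.21 to 0.08). IKZF1 and IKZF3 had log2 fold changes of 0.06 (interval -0.04 to 0.16) and 0.24 (0.13 to 0.35, adjusted p = 0.0135, under the fold threshold). RUNX1 and CBFB had changes of 0.12 and 0.04. RUNX3 had a change of 0.22 (interval 0.10 to 0.33, adjusted p = 0.02, under the fold threshold). Of 11 genes of the RUNX list, 0 were called. IRF4 was at 227, 222 and 210 RPKM against 196, 212 and 177 RPKM (log2 fold change -0.17, adjusted p = 0.0819) and MYC at 226, 242 and 223 RPKM against 215, 217 and 194 RPKM (-0.14, adjusted p = 0.103). For both, the 95% intervals, -0.31 to -0.04 and -0.26 to -0.02, lay below 0 before adjustment. Of the 13 cereblon and substrate genes tested ZNF692, a zinc finger protein, rose by 0.36 on the log2 scale.

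Few genes of the replication, mitosis and stress lists were called. Of 37 DNA replication and 33 mitosis genes 0 were called, with median log2 fold changes of -0.00 and -0.06 beside 0.018 for all genes. The CDK inhibitors CDKN2B, CDKN2A and CDKN2D rose among 13 tested, by 0.38, 0.35 and 0.35, and their combination levels did not differ detectably from DMSO. After the GC and length correction CDKN2A (0.25, adjusted p = 0.107) and CDKN2D (0.18, adjusted p = 0.138) were not called, while CDKN2B was. Against AI-10-104 replicate 2 alone the changes of CDKN2B, CDKN2A and CDKN2D were 0.37, 0.05 and 0.14. In 33 genes of endoplasmic reticulum folding TXNDC5 was the only gene called, and in 25 ATF4 target genes DDIT4, an inhibitor of mTOR signalling, was the only gene called (log2 fold change 0.33). DDIT4 was under the fold threshold without AI-10-104 replicate 2 (0.30) and after the GC and length correction (0.19, adjusted p = 0.233). Median log2 fold changes were -0.07 for endoplasmic reticulum folding, -0.08 for ATF4 targets, -0.11 for NRF2 and heat shock and -0.08 for sterol synthesis genes. In that order 10 of 33, 6 of 25, 6 of 20 and 11 of 29 genes lay above 0, against 54.4% of all genes. For p53 targets the median was -0.04. MAF and JUN rose among 12 AP-1, BATF and MAF genes. TCN2 and GRN rose among 17 lysosomal genes. No gene was called of 16 p53 targets, 20 NRF2 and heat shock genes, 30 ribosome biogenesis genes, 29 sterol and fatty acid synthesis genes, 30 proteasome genes, 16 NF-kappaB genes, 11 BCL2 family genes, 6 metallothionein and zinc genes, 5 chemokine genes or 11 RGS genes. Without AI-10-104 replicate 2, genes were called in 6 of these lists. They were 2 chemokine genes, 1 ribosome biogenesis, 1 proteasome and 1 NF-kappaB gene that rose, and 1 NRF2 and heat shock and 1 sterol synthesis gene that fell. Of the lists with calls, the number that rose went to 3 for ID and BMP genes, 3 for AP-1, BATF and MAF genes, 2 for cereblon and substrates and 2 for endoplasmic reticulum folding, and in the ATF4 list 0 rose and 1 fell. Over all 34 lists, 51 of 689 genes rose (7.40%, against 3.16% of all genes tested) and 5 fell (0.726%, against 0.471%).

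**Figure D5:**
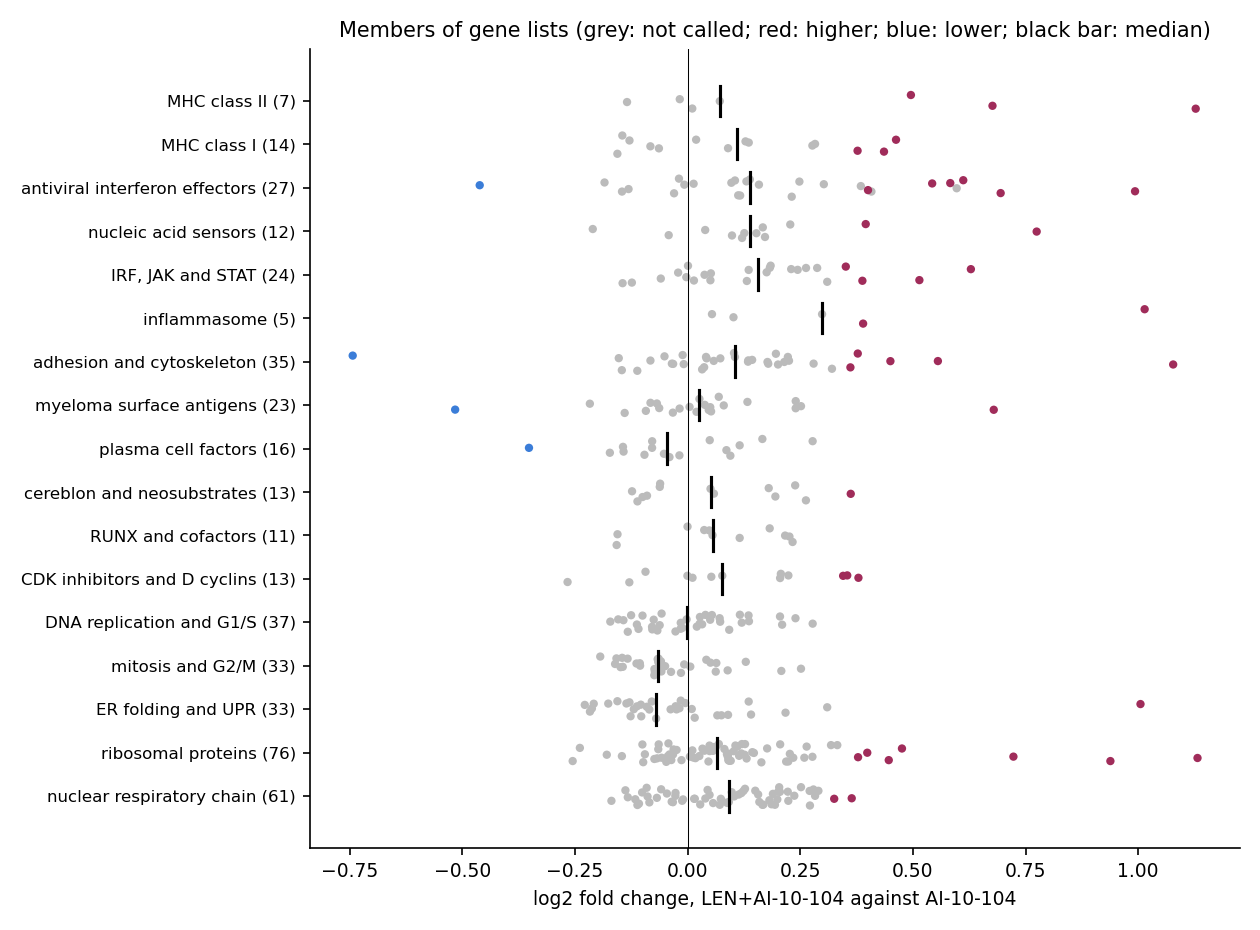
Log2 fold change of LEN+AI-10-104 against AI-10-104 for the members tested of 17 gene lists, with the number tested in parentheses; red points rose, blue points fell, grey points were not called, and the black bar is the list's median. The class I and II, interferon, inflammasome, adhesion, surface antigen, ribosomal protein and endoplasmic reticulum folding lists have members at 0.4 to 1.1. In the replication, mitosis and RUNX lists no gene was called and the largest change was 0.28. List medians run from -0.07 (endoplasmic reticulum folding) to 0.30 (inflammasome).

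Some of the largest fold changes rested on few reads. Among the genes that rose and fell, 7 and 7 had a mean of under 10 reads over the 6 samples. VTRNA2-1, a vault RNA, and MIR4285, a microRNA precursor, had 0 reads in all 3 AI-10-104 samples and 1 to 8 and 2 to 4 reads in the combination, so no fold is given. MIR6759 had 1 to 4 reads with AI-10-104 and 0 with the combination. SNORA73A, a small nucleolar RNA with more reads, was at 48.1, 49.6 and 64.9 RPKM against 37.3, 37.2 and 32.2 RPKM (log2 fold change -0.60 ± 0.16, adjusted p = 0.0306). Of the calls lost when AI-10-104 replicate 2 was left out, the largest were RARRES2, RND1 and C3AR1 among named protein-coding genes that rose, with adjusted p of 0.0626, 0.061 and 0.0811 without it, and PLK2 and ZSCAN16 among those that fell (0.0625 and 0.0503).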

How the data were processed

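Poly(A) RNA of 12 OPM-1 samples was sequenced. Alignment was with STAR to GRCh38. The values deposited by the authors are RPKM, with gene lengths. FastQC, Cuffnorm and DESeq2 are also named in the submitters' processing notes. Each deposited RPKM times its gene length was a whole number of reads for 100% of values (tolerance 0.01 read), from which reads on genes were computed. Such read numbers and floors (3 reads) cover counting error only. Of 38478 genes, 28 have a date number for a name. Coordinates and GC content came from the GENCODE annotation of GRCh38, to which 23482 symbols matched directly and 1233 through a synonym.

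All genes averaging 0.5 RPKM or more went into a limma 3.58.1 fit (R 4.3.3) of log2(RPKM + 0.1) over all 12 samples, 1 mean per condition, a variance trend and Benjamini-Hochberg adjustment. Fold changes on this scale understate those of low genes. The contrasts were LEN+AI-10-104 against AI-10-104, LEN against DMSO, and their difference. No set test was made. Motifs were counted in RefSeq promoters. The procedure was tested on simulated data. Tables were made with Python 3.11.15, pandas 2.3.3 and numpy 2.4.6, and figures with matplotlib 3.10.9.

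The genes named are the 15 largest rises and 10 largest falls among called genes whose groups do not overlap, up to 5 called members per list, 8 fixed genes (CRBN, IKZF1, IKZF3, RUNX1, RUNX3, CBFB, IRF4, MYC), the 5 most abundant called genes per direction, and the 5 largest per direction lost without AI-10-104 replicate 2. No interaction gene qualified. SAMD9, BST2, CD63, MVP, MX1, ISG15, B2M, IFI30, RFX5, RFXAP, RFXANK and HBB fall outside this rule: their values had been seen when they were chosen. Some genes are not reported here. The comparison, the 34 gene lists and the tests were chosen with earlier results of these data known.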

Additional observations from a re-analysis of the deposited data

How the results depend on the processing

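Against 355 genes that rose and 53 that fell, with 0 interaction genes, the fit to the 6 samples of the comparison gave 206 rises, sample weights gave 686, 102 and 1579, a pseudocount of 1 RPKM gave 32 falls, and quantile normalization gave 248 rises and 90 falls, which moved the share of rises among the calls from 87.0% to 73.4%. No fold threshold gave 1026 and 657, and a 1.5-fold threshold 83 and 15. With 1 sample left out, rises ran from 162 to 661, falls from 21 to 103, interaction genes from 0 to 540 (2 without LEN+AI-10-104 replicate 3), shared genes from 36 to 45, and called list genes from 37 to 82 around 56. The fit to 5 samples without AI-10-104 replicate 2 gave 619 and 104. Interaction genes numbered 3 with voom, 1 with no variance trend and 1 with a minimum mean of 10 reads.

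Chosen after seeing the data were replicate 2 as the only AI-10-104 sample (43 rises, 4 falls, 24 shared genes, 19 list genes), the GC and length correction (164 rises), the same with the replicate block (179 rises), the uncorrected genes with a GC value, and the filter on reads. The replicate block alone gave 408 rises and 65 falls. Same-numbered samples correlated by 0.052 on average in their deviations, and by 0.030 to 0.064 between AI-10-104 and the combination, so the numbers were not taken to pair samples. None of the 85 named genes that were called changed sign in any alternative. They were chosen as called from the same samples, so a change of sign was unlikely from the outset. With quantile normalization 73 of the 85 kept their call and 12 lost it. Of the named genes not called, CRBN went from -0.06 to 0.02 after the GC and length correction, with or without the block, and to 0.01 without LEN+AI-10-104 replicate 1, and CBFB from 0.04 to -0.03 against replicate 2 alone. The cause of the changed counts was not tested.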
